A study of Mus musculus with 30 samples.

Results

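GFPpos glioma monocytes were compared with GFPpos CCR2high macrophages, both sorted from glioma-bearing brain. The members are the 8 of the series' 30 libraries whose labels give either population, which make 7 of its 28 replicates: 3 of monocytes, from mice 22, 24 and 26, and 4 of macrophages, from mice 22, 23, 24 and 26. The monocyte sample of mouse 22 had been sequenced as a pair of libraries, which were summed. All mice were C57BL6.CCR2RFP/WT, which carry RFP in place of one copy of Ccr2, and were 12 to 18 weeks old. All had received GL261.BpalmGFP cells, a mouse glioma line with a membrane-bound GFP, in the striatum about a month before the cells were collected. No brain without a tumor was part of the series, and 1 glioma line was used. Both populations were CD11b-high and CD45-high and had taken up GFP. The monocytes were sorted as F4/80-bearing cells high in Ly6C, and it was the macrophages that were split into a CCR2-high and a CCR2-low population. The study lists no antibody to CCR2 for brain cells and does not state which signal the split used. Libraries were made from less than a nanogram of total RNA per sample, and a bulk library cannot tell fewer cells of a type from less RNA per cell.

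Ly6Chigh monocytes leave the blood by way of CCR2, the receptor for the chemokine CCL2, and enter inflamed or tumor-bearing brain. There they lose Ly6C as they become macrophages, and gain receptors and enzymes for engulfing and digesting material. CCR2high macrophages are labelled as high in the entry receptor. The comparison asks what separates infiltrating cells that both bear tumor membrane and are taken to differ in progress along this path.

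Few genes separated the populations. Genes of circulating classical monocytes were the largest group among them (10 of the 24 higher in monocytes, including Ly6c2, whose product was used in the sort). Of 11566 genes tested, 24 were called higher in the monocytes (0.208%) and 3 lower (0.0259%), at a Benjamini-Hochberg adjusted p under 0.05 in edgeR's quasi-likelihood test with the mouse as a block. The genes higher in monocytes were led by Plac8, Ly6c2, Ly6i, S100a6, Dbi, Tuba1a and Ly6d, and the 3 lower genes were Pla2g2d, Vasp and Slc25a10. All 24 were higher in the monocytes of each of the 3 mice that gave both populations, and all 3 were lower in each. With p left unadjusted, 881 genes passed 0.05, of which 554 were higher and 327 lower.

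The replicates were not alike in depth or in the share of spike-in RNA. Each replicate held between 1553616 and 5689644 gene counts, and the floor of 3 counts corresponded to 0.608 to 2.04 normalised read counts (CPM, the count as a share of the scaled library size on the usual common scale). Spike-in RNA took 3.59% and 5.16% of the counts of the monocytes of mice 22 and 24, against 0.612% in those of mouse 26 and 0.400% to 1.02% in the macrophages. The libraries of the mouse 22 monocytes held 8.68% and 1.29% spike-in, and their counts correlated across genes at a Spearman coefficient of 0.604, below the 0.786 to 0.810 between monocytes of different mice. Scaling to the spike-ins instead of to the gene counts shifted the median over all genes, on the log2 scale, from -0.02 to -1.92, left 0 genes called (3834 passed 0.05 before adjustment) and put 14 of the 24 higher genes below 0. Every direction given here is therefore relative to the TMM-scaled gene counts of the libraries and not to the spike-ins.

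The calls depended on single replicates. Of the 27 genes, 7 stayed called in all 7 fits that left out 1 replicate: Plac8, Ly6c2, S100a6, Dbi, Ly6d, Ly6i and Tuba1a. The other 20 lost their call in 3 to 7 of these fits. Of the 27, 8 remained called without the macrophages of mouse 22 or mouse 23 and without the monocytes of mouse 22, 10 without the macrophages of mouse 24, 11 without those of mouse 26, 13 without the monocytes of mouse 24 and 24 without the monocytes of mouse 26. Without the monocytes of both mice 22 and 24, the replicates with the most spike-in, 4 genes were called. Without the replicate block 2 genes were called, Plac8 and Ly6c2. A blocked fit of the 2 compared populations alone called 0 genes, with 398 under 0.05 before adjustment, while one of the 6 brain populations called 153, all 27 included.

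**Figure D1:**
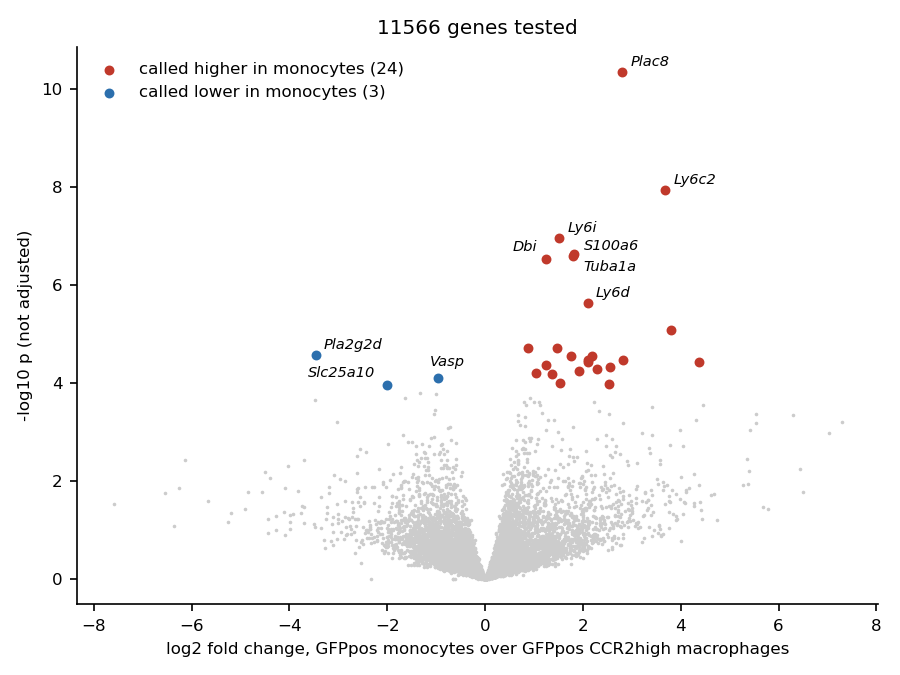
Each point is 1 of 11566 genes, with the log2 fold change between GFPpos glioma monocytes and GFPpos CCR2high macrophages on the horizontal axis and -log10 of the unadjusted p on the vertical axis. The 24 genes called higher (red) reach a log2 fold change of 4.37, and the 3 called lower (blue) reach -3.47, with values scaled to gene counts (14 of the red genes fall below 0 with spike-in scaling).

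Ly6c2 encodes the GPI-anchored antigen that the anti-Ly6C antibody binds, so its level checks the sort and is no result. It stood at 3166, 1578 and 1181 CPM in the monocytes of mice 22, 24 and 26, and at 159, 236, 185 and 122 CPM in the macrophages of mice 22, 23, 24 and 26. The groups did not overlap (log2 fold change 3.68 ± 0.42 SE, adjusted p = 6.64e-05). For Ccr2, after which the macrophage populations are named, monocytes held 349, 228 and 265 CPM and macrophages 140, 149, 57.4 and 200 CPM. The log2 difference of 1.29 ± 0.32 was not called (adjusted p = 0.13). Ccr2 was called in the blocked fit of the 6 brain populations (adjusted p = 0.00621), by DESeq2's Wald test (adjusted p = 0.0242) and in edgeR's test without the monocytes of mouse 26 (adjusted p = 0.0277). That was 1 of the 7 fits with 1 replicate left out, and the highest adjusted p among these was 0.640. In edgeR's test it was not called without the block (adjusted p = 0.830) or with spike-in scaling (log2 -0.89, adjusted p = 0.334). Adgre1, which encodes F4/80, stood at 472, 481 and 254 CPM in monocytes and at 536 to 831 CPM in macrophages (adjusted p = 0.436). Ly6c2 was ordered as the labels say. Ccr2 and Adgre1, for which the labels set no order between these populations, did not overlap either, while Ptprc (CD45) and Itgam (CD11b), which both gates required, overlapped.

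Plac8, a small cysteine-rich protein abundant in classical monocytes, gave the smallest p of all genes. It was present at 1837, 1415 and 612 CPM in the monocytes of mice 22, 24 and 26. The macrophages of mice 22, 23, 24 and 26 held 169, 297, 198 and 133 CPM. Every monocyte replicate lay above every macrophage replicate, and the mean of 1288 ± 622 CPM (SD, n = 3) stood against 199 ± 70.6 CPM (SD, n = 4). The fitted difference was 6.97-fold (log2 2.80 ± 0.24, adjusted p = 5.28e-07), and within single mice the ratio was 10.9, 7.16 and 4.60. With spike-in scaling it was 0.72 on the log2 scale.

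The genes of circulating classical monocytes formed the one list with many calls. Of 25 such genes tested, 10 were called higher and 0 lower, 22 lay above 0, and their median log2 fold change was 1.54, against -0.02 over all genes. The list holds Ly6c2, Ly6c1 and Ccr2, which are tied to the sort, so its counts and median are in part fixed by the gates. With spike-in scaling the list's median was -0.58 against -1.92 over all genes, and under the other alternatives it lay between 1.04 and 1.63. Among the 10 were Ly6c2, Plac8, S100a6, S100a4, Ifitm6, Chil3, Cd177, Hp and Ms4a4c. Those with the opposite sign were Cebpd, Smpdl3a and F13a1, none of them called.

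S100a6 and S100a4 encode small calcium-binding proteins. S100a6 stood at 466, 336 and 323 CPM in monocytes against 77.7, 186, 106 and 145 CPM in macrophages, with no overlap (3.52-fold, adjusted p = 0.000571). S100a4 stood at 98.8, 80.9 and 47.3 CPM against 17.2, 32.3, 11.6 and 28.5 CPM, also without overlap (4.31-fold, adjusted p = 0.0252). A further family member, S100a10, the partner of annexin A2, was higher by less, 256 ± 67.5 against 133 ± 14.2 CPM (2.06-fold, adjusted p = 0.0325).

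Hp, the hemoglobin-binding protein haptoglobin, stood at 261, 91.1 and 208 CPM in monocytes against 45.9, 20.6, 25.6 and 63.6 CPM in macrophages (4.88-fold, adjusted p = 0.0302), with no overlap. Chil3, the chitinase-like protein Ym1, stood at 154, 269 and 532 CPM against 17.8, 185, 33.6 and 71.3 CPM. The groups overlapped through the macrophages of mouse 23, a mouse with no monocyte sample, while the ratio within the other mice was 8.63, 8.02 and 7.47 (7.01-fold in the fit, adjusted p = 0.0252).

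Cd177, a surface glycoprotein also carried by neutrophils, was the gene with the highest fold among those called. It was counted at 63.1, 131 and 13.8 CPM in monocytes, and at 3.19, 20.6, 0 and 1.16 CPM in macrophages, which is 5, 100, 0 and 5 counts (log2 4.37 ± 0.85, adjusted p = 0.0252). The 2 populations overlapped, again through mouse 23. Ifitm6, of the interferon-induced transmembrane family, stood at 67.9, 47.6 and 23.3 CPM against 8.92, 8.44, 18.9 and 8.79 CPM (4.57-fold, adjusted p = 0.0252). Ms4a4c, a membrane protein of the MS4A family, stood at 1364, 1031 and 601 CPM against 465, 340, 355 and 241 CPM (2.90-fold, adjusted p = 0.0465). Neither gene overlapped between the groups.

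**Figure D2:**
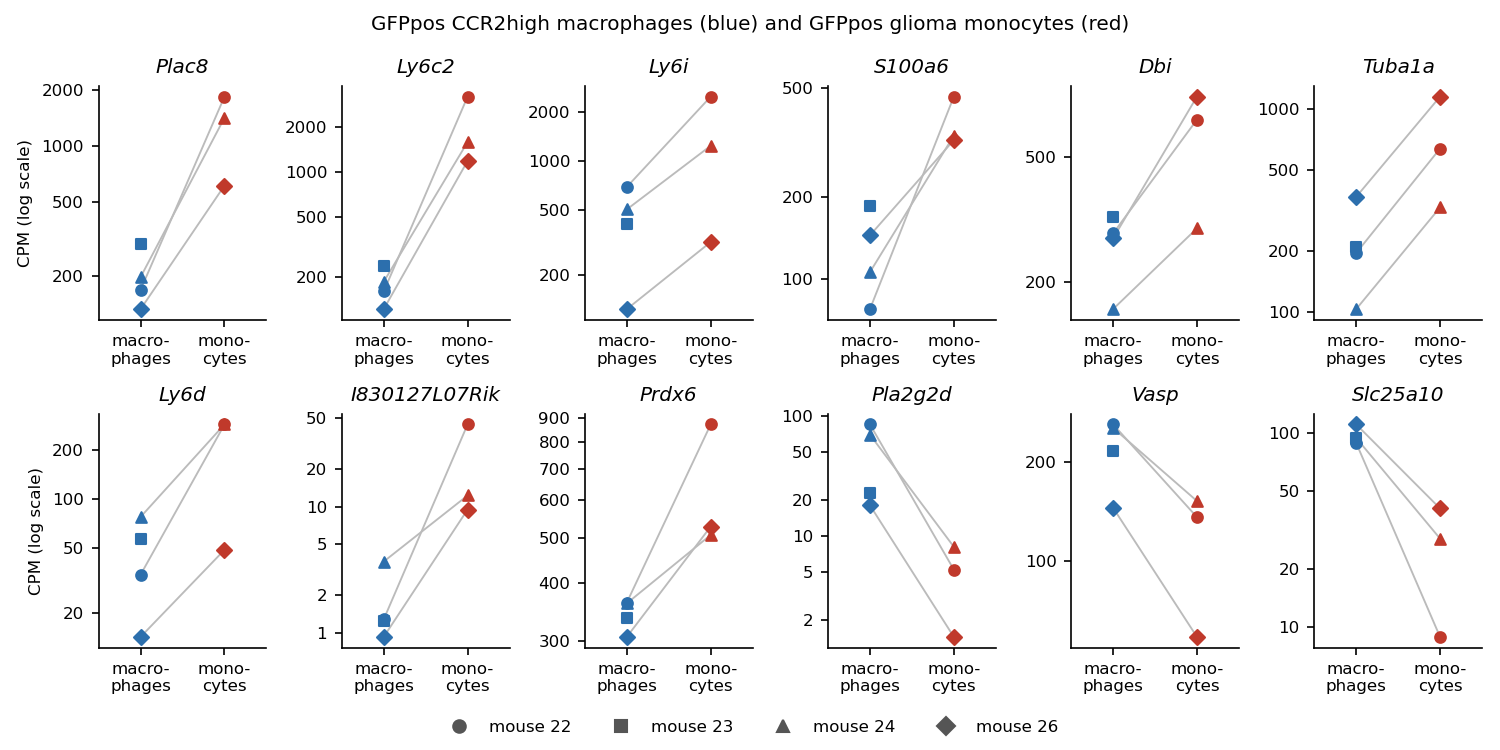
CPM on a log scale for the 9 genes with the smallest adjusted p among those higher in monocytes and for the 3 lower genes, in macrophages (blue) and monocytes (red); symbols mark the mouse, and lines join samples of 1 mouse. Plac8 and Ly6c2 separate fully, Ly6i, Ly6d, Dbi and Tuba1a overlap between groups while each line rises, and the 3 lower genes fall in each of the 3 mice.

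The position of the called genes was not part of how they were chosen. In GENCODE vM21 (GRCm38), 4 of the 24 higher genes lay in one stretch of chromosome 15, between 74762056 and 75135128, which holds genes of the Ly6 family of GPI-anchored surface proteins. From left to right these were Ly6d, Ly6i, Ly6c2 and I830127L07Rik, the last annotated as a transcribed pseudogene. All 8 tested genes of the stretch lay above 0, and the 4 not called were Ly6k, Ly6e, Ly6a and Ly6c1. This stretch was picked after the calls were seen and was given no test. The genes are near-copies of each other, Ly6c1 and Ly6c2 above all, so reads may have been split between them or lost.

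Ly6i, a further GPI-anchored member of this family, varied more widely over the mice than Ly6c2. Its values were 2473, 1237 and 318 CPM in the monocytes of mice 22, 24 and 26, and 692, 409, 504 and 124 CPM in the macrophages of mice 22, 23, 24 and 26. The populations overlapped, since mouse 26 was low in both, but the ratio within mice was 3.57, 2.45 and 2.58. The blocked test called it (2.85-fold, adjusted p = 0.000431), and without the block the adjusted p was 0.753. Ly6d behaved alike, at 285, 285 and 48.8 CPM against 34.4, 56.8, 77.5 and 14.3 CPM, with ratios of 8.27, 3.68 and 3.40 within mice (adjusted p = 0.00385). I830127L07Rik was present at 44.8, 12.2 and 9.47 CPM, against 1.27, 1.24, 3.66 and 0.925 CPM in macrophages, which is 2, 6, 6 and 4 counts (adjusted p = 0.0119). Its highest monocyte value came from mouse 22, and without that replicate it was not called.

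S100a4 and S100a6 were neighbors too, within 20.4 kb on chromosome 3 with no other tested gene between them. Ms4a8a and Ms4a4c lay 360 kb apart from end to end on chromosome 19, and of the 6 tested genes there 3 were above 0. The macrophage-rich Ms4a7 of that stretch had 395 CPM on average in monocytes and 712 CPM in macrophages, which was not called (adjusted p = 0.828).

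The promoters of Plac8 and Ly6c2 are shown because these genes had the smallest adjusted p of the genes called higher. Both also kept their calls in every fit with 1 replicate left out and in the fit without the block. Each is 300 bases from RefSeq (GRCm38.p6), from 250 bases before to 50 bases after the start of the gene, on the minus strand in both cases, at chr5:100572156-100572455 and chr15:75111922-75112221. Capitals mark the letters GAGGAAG, the core bound by PU.1, the transcription factor of the myeloid lineage, on either strand. TTGCNNAA, read by C/EBP factors, and GAAANNGAA, part of the interferon-response element, were searched on both strands too.
Plac8: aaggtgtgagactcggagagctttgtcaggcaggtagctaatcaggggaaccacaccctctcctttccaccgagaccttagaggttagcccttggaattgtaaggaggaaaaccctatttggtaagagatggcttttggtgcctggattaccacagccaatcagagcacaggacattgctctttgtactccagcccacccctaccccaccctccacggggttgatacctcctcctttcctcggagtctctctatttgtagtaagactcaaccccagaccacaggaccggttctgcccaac
Ly6c2: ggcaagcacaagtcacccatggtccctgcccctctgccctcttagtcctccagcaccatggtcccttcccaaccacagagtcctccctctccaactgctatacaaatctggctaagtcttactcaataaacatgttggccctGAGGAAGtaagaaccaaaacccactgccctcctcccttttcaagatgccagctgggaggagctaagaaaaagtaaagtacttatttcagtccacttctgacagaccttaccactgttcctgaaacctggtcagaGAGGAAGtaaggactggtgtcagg
Ly6c2 held GAGGAAG at 2 places and Plac8 held none of the 3 patterns. Of 8701 promoters of tested genes, 14.3% held GAGGAAG, 8.4% TTGCNNAA and 7.91% GAAANNGAA. A match is a match of letters and not a site. A promoter was listed for 15 of the 24 higher genes, too few for a comparison of the set.

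Other higher genes were outside the list of classical monocyte genes. Of these, Gm9733, Hopx, Mcemp1, Ms4a8a and Glipr2 had higher means in Ly6Chigh blood monocytes than in GFPpos glioma monocytes. Dbi, Tuba1a, Prdx6 and Clec4e had lower ones. Dbi, the acyl-CoA-binding protein, stood at 660, 297 and 782 CPM in monocytes and at 286, 323, 164 and 276 CPM in macrophages (2.38-fold, adjusted p = 0.000571). The monocytes of mouse 24 lay inside the macrophage range, and the ratio within mice was 2.31, 1.81 and 2.83. Tuba1a, an alpha-tubulin, had ratios of 3.28, 3.18 and 3.13 within mice, from 640, 328 and 1155 CPM against 195, 209, 103 and 369 CPM (adjusted p = 0.000571). Prdx6, a peroxiredoxin that reduces lipid peroxides, was 1.84-fold higher, with 872, 507 and 528 CPM against 307 to 363 CPM (adjusted p = 0.0225).

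Hopx, a homeodomain protein that does not bind DNA, stood at 154, 133 and 48.4 CPM against 26.1 to 54.6 CPM (adjusted p = 0.0225). Clec4e encodes Mincle, a receptor for mycobacterial glycolipid and for material of dying cells, and was 3.77-fold higher, with 169 to 238 CPM in monocytes and 20.1 to 89.8 CPM in macrophages (adjusted p = 0.0313). It was the one call among 26 Fc gamma and innate sensing receptors, whose median was 0.12. Mcemp1, Glipr2, Gm9733 and Ms4a8a completed the list, at 2.58-, 2.37-, 4.28- and 5.80-fold, with adjusted p of 0.0325, 0.0284, 0.0252 and 0.048. None of these 4 overlapped between the groups. Counted over all 24 higher genes, 17 did not overlap, where 2.79% of all tested genes had every monocyte replicate above every macrophage replicate.

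Ighm, the constant region of the IgM heavy chain, was called higher as well, with 823, 804 and 1324 CPM in monocytes and 171, 267, 301 and 134 CPM in macrophages (5.91-fold, adjusted p = 0.0289). Ighm is a gene of B cells, which neither gate was meant to hold. Of 13 B and plasma cell markers tested it was the one called, and 11 lay above 0. Their summed level was 1977 to 3509 CPM in monocytes and 442 to 2168 CPM in macrophages. The B-cell surface gene Ms4a1 was at no more than 9.13 CPM in monocytes and 26.2 CPM in macrophages, while the B-lineage transcription factor Pax5 was at 0 in 3 of the 7 replicates. Igkc, the kappa light chain, stood at 1212, 766 and 508 CPM against 108, 238, 617 and 108 CPM (adjusted p = 0.339). Igj stood at 399, 432 and 76.1 CPM against 15.9, 28.4, 218.5 and 30.1 CPM (adjusted p = 0.314). Cd79a stood at 110, 138 and 10.9 CPM against 29.95, 26.4, 119.6 and 5.32 CPM (adjusted p = 0.484). The markers below 0 were Ms4a1 and Blk (log2 -0.38 and -2.34), neither of them called. The part of B-lineage RNA in the result was not tested.

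Lower in monocytes were 3 genes, none of them on any of the 35 lists. Pla2g2d, a secreted phospholipase A2 of myeloid cells, stood at 5.27, 8.16 and 1.46 CPM in monocytes and at 84.8, 22.7, 69.6 and 18.04 CPM in macrophages, with no overlap (11.1-fold lower, adjusted p = 0.0252). In monocytes this was 26, 12 and 4 counts. Slc25a10, the mitochondrial dicarboxylate carrier, stood at 8.92, 28.6 and 40.8 CPM against 88.6, 93.5, 94.0 and 110 CPM, again apart (4.01-fold lower, adjusted p = 0.0483). Vasp, which promotes the growth of actin filaments, stood at 136, 152 and 59.0 CPM against 260, 216, 254 and 145 CPM (1.94-fold lower, adjusted p = 0.0387). Vasp overlapped between groups and lost its call in each of the 7 fits with 1 replicate left out, and the others lost theirs in 6 of them. Of the 3 genes 2 did not overlap, where 2.91% of all genes had every monocyte replicate below every macrophage replicate.

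The genes next in order below the threshold in this direction, by unadjusted p, were Slc48a1, Cmtm3, Mmp13, Gpr162 and Lipa, and none was called. The blocked fit of the 6 brain populations called all 5 (adjusted p from 0.00784 to 0.0258), as did DESeq2's Wald test (adjusted p from 0.00103 to 0.00681). In edgeR's test none was called without the block (adjusted p from 0.167 to 0.664) or with spike-in scaling (adjusted p = 0.141 for each). Slc48a1, a heme transporter of the endolysosome, had 59.2, 38.1 and 125 CPM in monocytes against 125 to 203 CPM in macrophages (adjusted p = 0.0662). Mmp13, a collagenase, had 172, 112 and 106 CPM against 426, 227, 352 and 379 CPM (adjusted p = 0.0758). Lipa, the lysosomal acid lipase that frees cholesterol and fatty acids, had 156, 141 and 125 CPM against 179 to 353 CPM (adjusted p = 0.103). The values of Mmp13, Lipa, Slc48a1, Cmtm3 and Gpr162 were apart in these replicates, with the highest monocyte below the lowest macrophage.

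Genes of mature macrophages had no call in either direction, while the fit of the 6 brain populations called 1 tissue macrophage gene, 2 lipid-associated macrophage genes and 1 lysosome gene lower, with Lipa on both of the latter lists. Of 30 tissue macrophage genes 5 lay above 0, with a median log2 fold change of -0.45, and under the alternatives other than spike-in scaling the median ran from -0.82 to -0.24. Mertk, a receptor for apoptotic cells, had 50.1, 104 and 87.0 CPM in monocytes against 104 to 261 CPM in macrophages (adjusted p = 0.361). The brain-only fit called it (adjusted p = 0.0436), while the fit without the block (adjusted p = 0.888) and DESeq2's Wald test (adjusted p = 0.0517) did not. Csf1r, the receptor for the growth factor M-CSF, overlapped, with 2413 to 3428 CPM against 2253 to 4427 CPM (adjusted p = 0.919), as did Cx3cr1, the receptor for fractalkine (adjusted p = 0.809). Of 27 genes of lipid-associated macrophages 8 lay above 0 (median -0.24), and of 40 lysosome genes 3 did (median -0.35). Ctsb, a cysteine protease of the lysosome, had 6423, 6313 and 5395 CPM in monocytes against 7344 to 9627 CPM in macrophages, apart but not called (adjusted p = 0.394). Atp6v0d2, a subunit of the lysosomal proton pump, had a log2 fold change of -2.30 ± 0.85 (adjusted p = 0.43).

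Of 40 cell cycle genes 4 lay above 0, with a median of -0.57 and 0 calls. Kif11, a motor of the mitotic spindle, and Rrm2, a subunit of ribonucleotide reductase, had an unadjusted p under 0.05, with 7.94 against 33.1 CPM and 41.3 against 78.9 CPM on average. Mki67, a marker of cycling cells, had 20.5 against 38.3 CPM (adjusted p = 0.87). The list's summed level was 1670 to 3323 CPM in monocytes and 2716 to 3393 CPM in macrophages, and these ranges overlapped.

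No antigen presentation gene was called, among 13 MHC class II genes (median -0.08) and 21 of MHC class I presentation (median 0.12). H2-Aa, an alpha chain of class II, had 9995, 7246 and 3180 CPM in monocytes and 8718, 6189, 8035 and 5199 CPM in macrophages, with a log2 difference of -0.08 ± 0.32. Both populations were lowest in mouse 26. H2-Eb1 and Cd74, the invariant chain, followed the same order of mice, and the median of 18 complement genes was -0.10 with 0 calls. The 95% interval of the H2-Aa difference ran from -0.73 to 0.58.

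**Figure D3:**
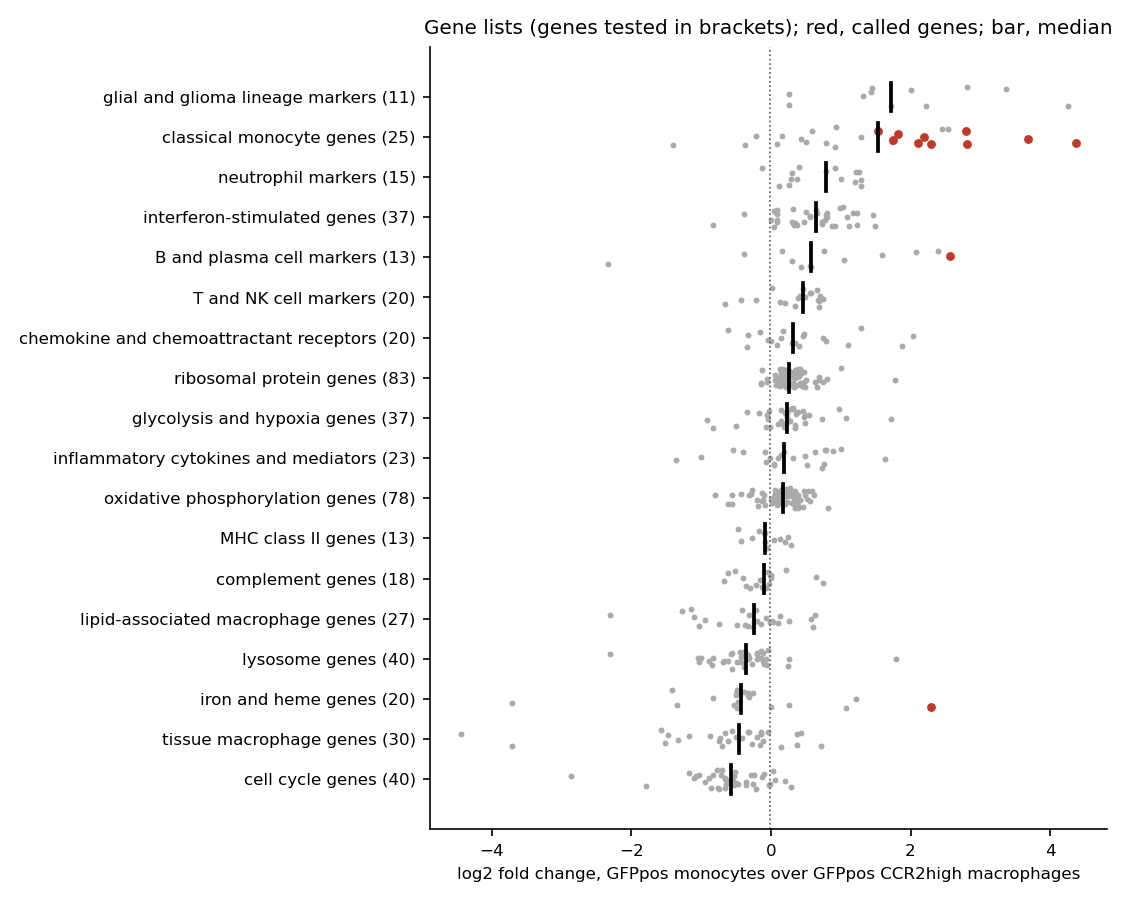
Each point is 1 tested gene of the list named at the left, with its log2 fold change between GFPpos monocytes and GFPpos CCR2high macrophages, scaled to gene counts; bars are list medians, the dotted line the median of all genes, and red points called genes. Glial and glioma lineage markers have the highest median (1.73, with 0 calls), and cell cycle genes have the lowest (-0.57). Classical monocyte genes follow the glial list (1.54, with 10 calls, the sort gene Ly6c2 included). With spike-in scaling the glial list's median is 0.64 and those of the other lists shown fall below 0.

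Of 37 genes that interferon induces, 35 lay above 0, with a median log2 fold change of 0.64 against -0.02 over all genes, 14 had an unadjusted p under 0.05 and 0 were called. Leaving out the monocytes of mouse 26 gave 1 call, and a fit over the 6 brain populations alone gave 11. Irf7, a transcription factor of the interferon response, had 2475, 1985 and 837 CPM in monocytes against 1067, 718, 1165 and 758 CPM in macrophages (log2 0.81 ± 0.21, adjusted p = 0.152). Isg15, a ubiquitin-like modifier, had 632 against 279 CPM on average (adjusted p = 0.109), and Rsad2, the antiviral enzyme viperin, 372 against 125 CPM (adjusted p = 0.401). With spike-in scaling the list's median was -1.43. Between the same pair of populations without GFP, scaled to gene counts, 9 genes of this list were called higher and 0 lower. The list's median there was 1.18.

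None of the 26 chemokines or 23 inflammatory cytokines and mediators was called, nor any gene on the lists of arginine, itaconate and tryptophan metabolism, glycolysis and hypoxia, or oxidative phosphorylation. Il1b, the inflammatory cytokine, had 3486, 1907 and 3249 CPM in monocytes and 1610, 920, 1089 and 2691 CPM in macrophages (log2 0.75 ± 0.28, adjusted p = 0.436). The fit of the 6 brain populations called it (adjusted p = 0.0487), while the fit without the block (adjusted p = 0.921) and DESeq2's Wald test (adjusted p = 0.307) did not. Tnf had 137 to 209 CPM against 62.0 to 317 CPM. Arg1, the arginase often used to mark suppressive macrophages, had 558, 645 and 1622 CPM against 277, 1592, 425 and 1548 CPM. It varied more between mice than between populations (adjusted p = 0.594). Nos2, which makes nitric oxide from the same amino acid, had 54.2, 37.4 and 135 CPM against 22.3, 47.2, 12.2 and 208 CPM (adjusted p = 0.796). The median was 0.19 for 26 chemokines, 0.32 for 20 of their receptors, 0.22 for 37 glycolysis and hypoxia genes, 0.17 for 78 oxidative phosphorylation genes and 0.26 for 83 ribosomal protein genes, with 0 calls among them.

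Markers of other cell types did not pass the test apart from Ighm. Of 15 neutrophil markers tested 14 lay above 0, with a median log2 fold change of 0.78. Summed, they came to 721, 3499 and 950 CPM in the monocytes of mice 22, 24 and 26 and to 339 to 1239 CPM in macrophages. The monocytes of mouse 24 held 973 CPM of Ngp and 235 CPM of Camp, granule genes that were at 0 in the other monocytes, and Elane and Mpo were at 0 in all monocytes. Cd177, which neutrophils share, had its highest value in that replicate too, and the part of neutrophil RNA in its call was not tested. All 11 tested glial and glioma lineage markers lay above 0 (median 1.73, and 0.64 with spike-in scaling) without a call, though the fit of the 6 brain populations and DESeq2's Wald test called 1 each, with summed levels of 800 to 1742 CPM in monocytes and 515 to 1401 CPM in macrophages, most of it from Vim and Cd44, which myeloid cells express. Ptprz1, a receptor phosphatase of glial and glioma cells, had 32.7, 6.80 and 74.3 CPM against 4.46, 4.94, 0 and 5.78 CPM (adjusted p = 0.242). Summed microglia markers came to 7503 to 11900 CPM and 7967 to 11960 CPM. Of 20 T and NK cell markers 17 lay above 0 (median 0.46), and their sums were 1046 to 3339 CPM and 1114 to 2424 CPM. The part of these other cell types in the genes called higher was not tested.

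The same pair of populations without GFP, GFPneg glioma monocytes (3 replicates) and GFPneg CCR2high macrophages (4 replicates), came from the same mice and gave a contrast with no shared sample. There 77 genes were called higher in monocytes (0.666%) and 9 lower (0.0778%). Of the 24 genes called higher in the GFPpos cells all 24 lay above 0 in the GFPneg cells and 20 were called, among them Plac8 (log2 3.10 ± 0.24, adjusted p = 7.33e-08), Ly6c2, Ly6i, S100a6 and Ly6d. The exceptions were Dbi, Tuba1a, Ighm and S100a10. Of the 3 lower genes 0 were called and 2 lay below 0. The 20 shared genes were 74.1% of the GFPpos calls and 23.3% of the GFPneg calls, and 73 of the 77 genes called higher without GFP lay above 0 with it. Over all tested genes, 58.9% lay above 0 in both contrasts or below 0 in both. The log2 fold changes of the contrasts correlated across genes at a Pearson coefficient of 0.265.

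No gene was called to differ between the GFPpos and the GFPneg contrast. The test of the difference itself called 0 genes (0%); before adjustment 425 passed 0.05, and the smallest adjusted p was 1, while DESeq2's Wald test called 3. For Plac8 the difference was -0.30, with a 95% interval from -0.97 to 0.37, and for Ly6i 0.01, from -0.56 to 0.59. Dbi had a log2 fold change of 1.25 ± 0.17 with GFP and 0.35 ± 0.17 without, a difference of 0.90 with an unadjusted p of 0.00137. Tuba1a had 1.79 ± 0.25 and 0.65 ± 0.25 (unadjusted p = 0.00332), and Vasp -0.96 ± 0.20 and 0.04 ± 0.20 (unadjusted p = 0.00133). The adjusted p of each of these 3 differences was 1. The 3 genes with the smallest p of the difference were Slc29a1, a nucleoside transporter (1.47, unadjusted p = 0.000193), Acot7, an acyl-CoA thioesterase, and Ighv1-39, an immunoglobulin segment that was at 0 in all GFPpos monocytes.

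**Figure D4:**
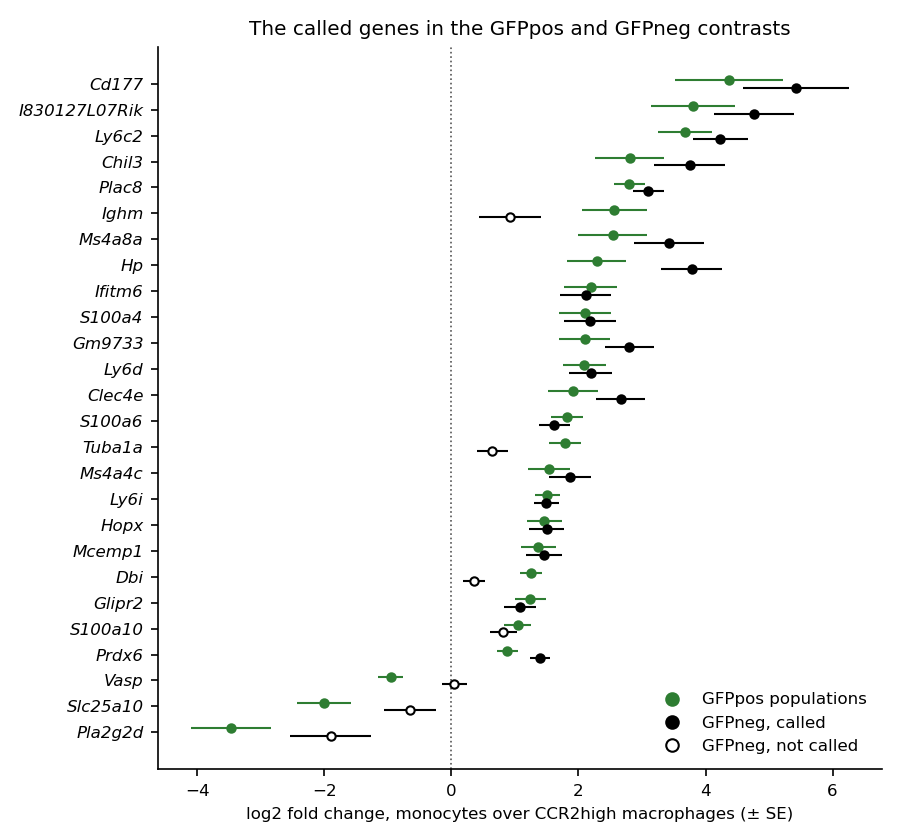
Log2 fold change with its SE for 26 of the 27 genes called between the GFPpos populations (green), and for the same genes between the GFPneg populations (black, filled where called), scaled to gene counts (14 of the 24 higher genes fall below 0 with spike-in scaling of the GFPpos contrast). Of the 23 genes at the right, 19 are filled, and the 3 genes at the left are open.

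The levels of these genes in the other populations give the GFPpos contrast its place. For 18 of the 24 higher genes the mean fell from GFPpos monocytes to GFPpos CCR2high and on to GFPpos CCR2low macrophages. The first of these steps follows from how the genes were chosen, so only the step to CCR2low cells adds to it. The share of all tested genes that fell at that step was not counted. Ifitm6 went from 46.3 ± 22.3 to 11.3 ± 5.10 and 3.24 ± 1.803 CPM, and Gm9733 from 23.7 ± 2.45 to 6.45 ± 2.68 and 1.86 ± 1.15 CPM. For Plac8 the step from CCR2high (199 ± 70.6 CPM) to CCR2low macrophages (123 ± 38.3 CPM) was within the spread of the replicates. The exceptions were I830127L07Rik, Ighm, Cd177, Dbi, Ly6d and Tuba1a, with means no lower in the CCR2low cells. Tuba1a stood at 708 ± 418, 219 ± 111 and 439 ± 186 CPM in that order.

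Ly6Chigh blood monocytes had a higher mean than GFPpos glioma monocytes for 15 of the 24 genes. The share of all tested genes with this order was not counted. Cd177 averaged 1305 ± 426 CPM there (n = 3), against 69.1 ± 58.6 CPM in GFPpos glioma monocytes and 6.23 ± 9.66 CPM in CCR2high macrophages. Hp averaged 1834 ± 696 CPM in blood. For 6 genes the blood mean lay between those of the glioma populations: Ly6c2, Prdx6, Ighm, Clec4e, Dbi and Ms4a4c. For 3 it lay below both: Ly6i, Ly6d and Tuba1a had blood means of 91.2 ± 43.3, 12.99 ± 5.48 and 128 ± 23.5 CPM. Ly6c2 averaged 1198 ± 200 CPM in blood and 1975 ± 1050 CPM in glioma monocytes, a difference inside the spread of the latter. The means across populations are given as levels and were not tested here.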

How the data were processed

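Sorted cells were lysed, RNA was reverse transcribed with a poly-A primed low-input kit after ERCC spike-ins had been added, and libraries were read as paired ends. The authors deposited whole-number read counts per gene, one column per library and without normalization, made by aligning with STAR to mm10, removing duplicates with Picard (version 1.8.4 per the submitters' processing notes) and counting by htseq-count (mode intersection-strict) against Gencode GRCm38.p3. The strand setting is not given in the sources used here, so overlapping antisense genes cannot be told apart. Counts on no gene (6.28% to 9.38% in the 7 replicates) or on overlapping genes (1.63% to 1.84%) stayed out of library sizes and tests.

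Replicates are mice. By the study's own threshold (6000 genes at 5 reads) 1 library of another population was removed. The tests were run in R 4.3.3 with edgeR 4.0.16: filterByExpr, TMM, and the robust quasi-likelihood test on 1 fit over the 28 replicates of 8 populations, with the mouse as a block, since same-numbered samples came from the same animal. The correlation of their deviations from the group means was 0.0657, 0.147 and 0.230 for mice 22, 24 and 26. Between monocytes and macrophages of different mice it ran from -0.220 to 0.0714, so the value of mouse 22 did not exceed all of these. P-values were Benjamini-Hochberg adjusted over 11566 genes. The SE is the absolute log2 fold change over the square root of F. CPM are counts relative to the TMM-scaled library size. The method was also run on simulated counts drawn from this fit's own means and dispersions. Such counts cannot show faults of single libraries, and the outcome is not given here.

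Genes named are, in each direction, up to 12 called genes with the smallest adjusted p, no overlap and at least 10 CPM, or the 8 with the smallest p where fewer than 5 qualify; sort markers; the study's marker genes; and up to 4 called, else up to 2 of the highest, of each of 35 lists. All other called genes, and list members outside this rule, were named after their values were seen. Members, lists and tests were chosen with earlier results of these data known. Limits from counts cover counting error only. Alternatives were DESeq2 1.42.0, other scalings, filters, sets of samples and the model without the block. Values of some genes are not reported here by name, and the counts include them.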

Additional observations from a re-analysis of the deposited data

Results flagged for a closer look

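In the 4 macrophage replicates, 5 named genes had 1 replicate far from the others by Dixon's criterion at 95%, which chance meets in about 1 in 20 groups; 106 genes were examined. Ifitm6 stood at 18.92 CPM in mouse 24 against 8.44 to 8.92 CPM in the others. Gm9733 stood at 2.441 CPM in mouse 24 against 7.62 to 8.10 CPM. Clec4e stood at 20.14 CPM in mouse 24 against 70.8 to 89.8 CPM. Il2rg, the common gamma chain of cytokine receptors, stood at 406.7 CPM in mouse 26 against 764 to 864 CPM. Zfp36, which destabilizes cytokine messages, stood at 2348 CPM in mouse 23 against 2827 to 2880 CPM.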

How the results depend on the processing

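Removing the replicate block left 2 genes called between the GFPpos populations, 2 higher and 0 lower, both of them classical monocyte genes, and 20 between the GFPneg ones. With the 6 brain populations alone the calls were 153 (105 higher, 48 lower) and 333 without GFP. With the 2 compared populations alone they were 0 with the block and 1 without it (1 higher, 0 lower, 1 classical monocyte gene), and in the 3 mice that gave both they were 0. Spike-in scaling left 0 calls in both contrasts, and 0 higher, 0 lower and 0 classical monocyte genes. DESeq2's Wald test called 109 (77 higher, 32 lower), 201 without GFP and 3 for the difference. The first library of mouse 22 alone gave 12 (11 higher, 1 lower, 4 classical monocyte genes). Without the monocytes of mice 22 and 24, an alternative added after the data were seen, 4 were called (4 higher, 0 lower, 2 classical monocyte genes). Leaving out 1 replicate gave 8 to 64 calls (8 to 46 higher, 0 to 18 lower, 3 to 12 classical monocyte genes). The highest count came without the monocytes of mouse 26, and that fit assumes, as do all these, that the smaller group varies like the others. DESeq2 size factors, both filters on low values and the second library of mouse 22 alone kept each of these counts within 1.5 times, with 18 to 28 calls. Spike-in scaling reversed 14 log2 fold changes, among them S100a6 -0.21, Prdx6 -1.03, Gm9733 -0.14, S100a4 -0.18, Glipr2 -0.87, Clec4e -0.45, Dbi -0.53, Hopx -0.74, Ly6i -0.52, Mcemp1 -0.70, Ms4a4c -0.58, S100a10 -0.85 and Tuba1a -0.015. The cause of these shifts was not tested. Low counts limit Cd177, I830127L07Rik and Pla2g2d.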
